A study of Mus musculus with 17 samples.

Results

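This account covers 10 early feedback regulators and effectors in mouse brain after ischemia: Dusp1, Zfp36, Btg1, Btg2, Ier2, Ier3, Ifrd1, Phlda1, Homer1 and Rrad. They were found on the array by the gene symbol of the platform annotation. The 10 genes had 11 probe sets, of 12488 on the array, because Homer1 had 2, and all 11 were above the intensity floor on enough arrays to be tested. RNA came from grey and white matter supplied by the middle cerebral artery, the vessel whose closure is the usual model of stroke in mice. Treated ischemic pools had 1 h of ischemia, AEOL 10150 given intravenously after it, and 6 h of reperfusion. Ischemic pools had the same ischemia and reperfusion with no drug named. Drug control pools had AEOL 10150 and no ischemia, and control pools had saline and no ischemia, both collected 6 h after the injection. Each of these 4 groups had 3 arrays, and each array carried RNA pooled from 6 brains. A further 5 arrays each carried 1 brain given AEOL 10150 after ischemia. AEOL 10150 is a catalytic antioxidant, a small manganese porphyrin that breaks down superoxide. The labels give no dose, strain, sex or age, and a pool hides the differences between its brains.

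Immediate early genes are switched on within minutes of a stimulus by transcription factors that are already in the cell, with no new protein needed. The best known encode transcription factors such as Fos and Egr1. Others encode proteins that end or limit the signal, among them phosphatases, factors that destroy mRNA, antiproliferative proteins and a short form of a synaptic scaffold. In brain they respond to seizures, synaptic activity and ischemia, and most are transient.

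Some facts on the arrays bear on every value. On 10 arrays the mean between the 2nd and 98th percentiles was 2500. On the other 7, which are every single brain and treated ischemic pools 2 and 3, it lay between 129.3 and 210.2, so all arrays were brought to 2500 before any comparison. Values are therefore scaled intensities, which compare arrays for 1 probe set and not probe sets with each other. Neuron markers were bright in all groups, with summed intensities of 157470 to 177919 in treated ischemic, 151546 to 184380 in ischemic, 130398 to 198035 in drug control and 162744 to 196171 in control pools. The title and the description disagree for 3 pools: the description names saline for drug control pool 1, names no drug for treated ischemic pool 1, and calls treated ischemic pool 2 the first replicate of its group. Titles were followed here. The labels do not say whether pools shared surgery days, so p values measure only the spread between these arrays.

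Over both drug arms, 6 of the 11 probe sets rose with ischemia, each with an adjusted p under 0.05 from limma. They were those of Ier2, Rrad, Ier3, Phlda1, Dusp1 and Btg1, with folds between 1.65 and 3.47. Among all probe sets 46 of 10259 passed this threshold, or 0.448%, and 45 of the 46 were higher after ischemia. The members' median log2 difference was 1.06, against 0.014 for all probe sets tested, and 10 of 11 members lay above 0, against 52.5% of all. The members were chosen with earlier results of these data known, so setting them against all probe sets is a description. The contrast takes the mean of the treated ischemic and ischemic groups minus the mean of the drug control and control groups. For 7 members all 6 arrays with ischemia were higher than all 6 without it, a pattern that 0.829% of all probe sets showed. Without the 2 arrays whose treatment is in doubt, or with the deposited scale as a block, Ier2 was the 1 member still called. Calls fell over the whole array in these settings, to 22 of 10119 and 19 of 10259 probe sets. Without those 2 arrays the log2 differences were 1.04 for Dusp1, 0.77 for Btg1, 1.19 for Ier3, 1.19 for Phlda1 and 1.23 for Rrad, close to those with all 12, with larger standard errors. A change in the number of cells of a type and a change in RNA per cell cannot be told apart in such tissue RNA.

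**Figure D1:**
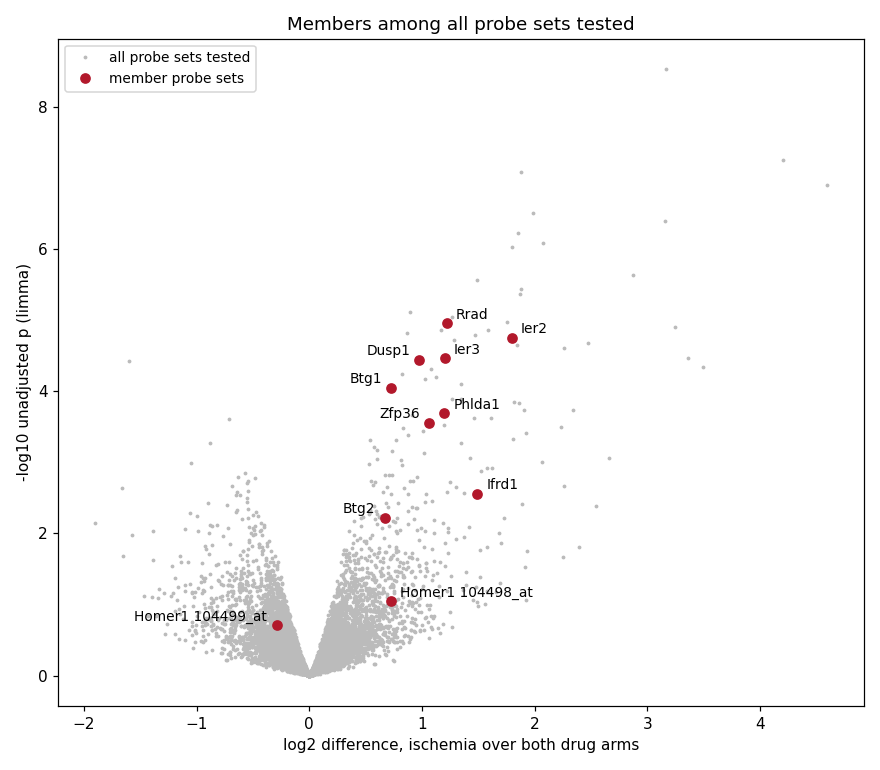
Each grey point is 1 of the 10259 probe sets tested, placed by its log2 difference for ischemia over both drug arms (horizontal) and its unadjusted limma p as −log10 (vertical). Red points are the 11 member probe sets. Of these, 9 have an unadjusted p under 0.05, as have 4.92% of all probe sets tested, and the exceptions are the 2 of Homer1.

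Dusp1 encodes a nuclear phosphatase that removes phosphate from the MAP kinases that induce it. The scaled intensity of 104598_at was 10285, 12751 and 9986 in treated ischemic pools 1 to 3, against 6988, 5528 and 6296 in drug control pools. It was 12952, 12195 and 15572 in ischemic pools, against 7320, 5325 and 5884 in control pools. All 6 ischemic arrays of either arm were above all 6 arrays without ischemia. Dusp1 rose 1.97-fold over both arms (log2 0.98 ± 0.14, SE, adjusted p = 0.0122). Promoters are printed for members with a full cyclic AMP response element, a serum response element or an NF-kB motif, the usual entry points of the signals that induce such genes. The RefSeq promoter table of GRCm38.p6, 250 bases before to 50 bases after a start, held 7 of the 10 genes and 8 starts, with Homer1 at 2. The Dusp1 promoter (chr17:26508423-26508722, minus strand) has TGACGTCA, the cyclic AMP response element, in capitals at −143 to −136 from the start, and the shorter TGACG at −191 to −187. Btg2 has the same 8 bases at −166 to −159 (chr1:134079106-134079405, minus strand).
Dusp1: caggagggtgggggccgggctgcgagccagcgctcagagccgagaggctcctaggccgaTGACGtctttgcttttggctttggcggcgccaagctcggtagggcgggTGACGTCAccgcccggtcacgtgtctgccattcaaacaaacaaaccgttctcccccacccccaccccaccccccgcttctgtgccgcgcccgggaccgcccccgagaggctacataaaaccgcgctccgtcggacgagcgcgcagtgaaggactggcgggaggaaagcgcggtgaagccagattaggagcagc
Btg2: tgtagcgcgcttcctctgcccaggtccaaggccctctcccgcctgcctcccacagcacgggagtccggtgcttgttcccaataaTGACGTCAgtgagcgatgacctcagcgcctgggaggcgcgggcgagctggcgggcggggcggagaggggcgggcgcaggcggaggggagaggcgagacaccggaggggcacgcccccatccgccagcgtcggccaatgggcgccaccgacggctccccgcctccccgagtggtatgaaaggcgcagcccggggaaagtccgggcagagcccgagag
On either strand TGACGTCA occurred in 1.79% of 32851 promoters, and TGACG, which it contains, in 20.8%. The shorter TGACG also lay in the promoters of Btg1, Ifrd1 and the upstream start of Homer1. A match is a description of letters and not a bound site.

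The other genes of MAP kinase feedback did not pass the test: 0 of 8 measured members of a list of MAP kinase phosphatases and ERK inhibitors, with a median log2 difference of 0.32. At an unadjusted p under 0.05, 3 of the 8 were higher, where 4.92% of all probe sets passed in either direction. Dusp6, a phosphatase of cytoplasmic ERK, differed by 1.02 (SE 0.27, adjusted p = 0.326) and Dusp16, a phosphatase of JNK and p38, by 0.77 (SE 0.27, adjusted p = 0.701). Errfi1, an inhibitor of the EGF receptor, differed by 0.33, and Dusp2 by 0.53 with an adjusted p of 1.

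Zfp36 encodes tristetraprolin, which binds AU-rich elements in mRNAs of cytokines and recruits the enzymes that shorten their tails. The intensity of 92830_s_at was 3572, 3692 and 3409 in treated ischemic pools, against 3179, 2393 and 1738 in drug control pools. It was 4423, 3547 and 4029 in ischemic pools, against 2009, 1122 and 1152 in control pools. Every ischemic array was above every array without ischemia, and the gap to the drug control pools was the narrower, since the highest of them reached 3179. Over both arms the fold was 2.09 (log2 1.06 ± 0.20, SE, adjusted p = 0.0569), just outside the threshold. Without control pool 1 the limma adjusted p was 0.0223, and without drug control pool 1 it was 0.0432. Zfp36 stayed outside the threshold when any other single array was left out. Of 21 alternatives other than the values as deposited 5 passed, and the adjusted p reached 0.364. Its promoter (chr7:28379179-28379478, minus strand) has a CArG box, the core of the serum response element, at −58 to −49 and the Egr-type GCGGGGGCG at −105 to −97, both in capitals.
Zfp36: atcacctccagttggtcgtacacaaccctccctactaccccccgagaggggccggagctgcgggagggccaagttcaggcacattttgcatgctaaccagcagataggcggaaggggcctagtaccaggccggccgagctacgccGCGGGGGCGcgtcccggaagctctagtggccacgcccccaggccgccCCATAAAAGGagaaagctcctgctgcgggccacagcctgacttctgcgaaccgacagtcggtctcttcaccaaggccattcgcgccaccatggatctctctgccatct
A CArG box occurred on either strand in 1.63% of the promoters and GCGGGGGCG in 2.91%.

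Of 10 measured mRNAs known as targets of tristetraprolin, 3 rose over both arms and all 10 lay above 0, with a median log2 difference of 1.68. The 3 were chemokines: Ccl2 (9.49-fold, adjusted p = 0.00713), Cxcl1 (10.3-fold, adjusted p = 0.0121) and Ccl3 (3.65-fold, adjusted p = 0.00334). Ptgs2, the inducible prostaglandin synthase, was 3.05-fold higher with an adjusted p of 0.0507. The mRNA decay machinery itself did not pass: 0 of 15 measured genes, median −0.10, with 1 of the 15 at an unadjusted p under 0.05. That gene was Zfp36l1, a relative of Zfp36, at 0.54 (SE 0.15, adjusted p = 0.376).

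Btg1 and Btg2 encode related antiproliferative proteins that bind the deadenylase Caf1, and Btg2 is also a p53 target. The intensity of 93104_at (Btg1) was 2627, 2619 and 3166 in treated ischemic pools, against 1733, 1707 and 1526 in drug control pools. It was 2825, 3197 and 2708 in ischemic pools, against 1944, 1722 and 1722 in control pools. The groups did not overlap in either arm, and Btg1 rose 1.65-fold over both (log2 0.73 ± 0.12, SE, adjusted p = 0.024), the smallest of the 6 rises. This call was lost, with adjusted p between 0.0561 and 0.0928, when any single array other than ischemic pool 3 was left out.

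The intensity of 101583_at (Btg2) was 10922, 7586 and 8262 in treated ischemic pools, against 6159, 5008 and 8169 in drug control pools. It was 8290, 7387 and 12587 in ischemic pools, against 4299, 5016 and 6041 in control pools. Treated ischemic pool 2 lay below drug control pool 3, so the groups overlapped in the drug arm. Over both arms Btg2 was 1.59-fold higher (log2 0.67 ± 0.19, SE) with an adjusted p of 0.424. Of 9 other measured genes of the Btg and Tob family and of cell cycle arrest, 0 passed, the median was 0.05, and 1 had an unadjusted p under 0.05. That was Tob1, another binder of Caf1, at 0.51 (SE 0.17, adjusted p = 0.656).

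Ier2 encodes a small nuclear protein induced by growth factors. The intensity of 99109_at was 5523, 3438 and 4465 in treated ischemic pools, against 1970, 1086 and 1509 in drug control pools. It was 5488, 3990 and 5207 in ischemic pools, against 1880, 826 and 1103 in control pools. Even the lowest array with ischemia was well above the highest without it. Ier2 had the largest fold of the members over both arms, 3.47 (log2 1.80 ± 0.24, SE, adjusted p = 0.00789).

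Ier3 encodes a membrane protein that modulates apoptosis and ERK signalling and is a known NF-kB target. The intensity of 94384_at was 7383, 8375 and 4640 in treated ischemic pools, against 3120, 2882 and 2684 in drug control pools. It was 8361, 7445 and 8864 in ischemic pools, against 3175, 4422 and 3171 in control pools. Treated ischemic pool 3 was low within its group but still above every array without ischemia, and Ier3 rose 2.30-fold over both arms (log2 1.20 ± 0.17, SE, adjusted p = 0.0121). Its promoter (chr17:35821463-35821762, plus strand) has an NF-kB motif in capitals at −92 to −83, found here on the opposite strand.
Ier3: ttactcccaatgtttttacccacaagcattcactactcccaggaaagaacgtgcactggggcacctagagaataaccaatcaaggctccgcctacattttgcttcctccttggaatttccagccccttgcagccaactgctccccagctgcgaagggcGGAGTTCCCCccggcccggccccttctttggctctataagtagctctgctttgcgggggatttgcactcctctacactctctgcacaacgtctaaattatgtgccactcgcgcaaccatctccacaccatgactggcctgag
That motif occurred on either strand in 8.46% of the promoters, and in 1 of the 8 member promoters.

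Ifrd1, also called Tis7, encodes a transcriptional corepressor. The intensity of 160092_at was 1428, 2589 and 894 in treated ischemic pools, against 652, 1009 and 514 in drug control pools. It was 1960, 3307 and 1261 in ischemic pools, against 409, 1093 and 367 in control pools. In each of the 4 groups pool 2 was the highest and pool 3 the lowest. Over both arms Ifrd1 was 2.81-fold higher (log2 1.49 ± 0.38, SE) with a limma adjusted p of 0.273. With the replicate number as a block the log2 difference was the same, with SE 0.13 and adjusted p = 0.00243. The numbers of treated ischemic pools were not taken to pair with the other groups, as same-numbered pools correlated at −0.34 to 0.40. The correlations below 0 were all of treated ischemic pool 3.

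Phlda1 encodes a pleckstrin homology protein known from T cell apoptosis in mouse. The intensity of 160829_at was 3159, 4692 and 3002 in treated ischemic pools, against 1353, 1945 and 1362 in drug control pools. It was 2967, 5196 and 2952 in ischemic pools, against 1499, 2025 and 1276 in control pools. Pool 2 was again the highest in each group, and the groups did not overlap in either arm. Phlda1 rose 2.29-fold over both arms (log2 1.20 ± 0.21, SE, adjusted p = 0.0462). The call was lost without any 1 of the 12 arrays, with adjusted p from 0.0545 to 0.145. None of 3 relatives of Phlda1 and Ifrd1 passed, with 0 of them at an unadjusted p under 0.05, and Phlda2 differed by 0.97 (SE 0.58).

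Rrad encodes a small GTPase of the RGK family, which binds the beta subunits of voltage-gated calcium channels and lowers calcium entry. The intensity of 97319_at was 1479, 1423 and 1542 in treated ischemic pools, against 791, 753 and 760 in drug control pools. It was 1227, 1435 and 1525 in ischemic pools, against 438, 401 and 695 in control pools. Both ischemic groups sat in 1 narrow band, the drug control pools in a lower one, and control pools 1 and 2 lower still. Rrad had the smallest p of the members over both arms (2.33-fold, log2 1.22 ± 0.15, SE, adjusted p = 0.00665). Gem, its RGK relative, was 3.50-fold higher with an adjusted p of 0.0852, and 0 of 5 measured genes of RGK proteins and calcium channel subunits passed, with only Gem at an unadjusted p under 0.05.

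Homer1 encodes a postsynaptic scaffold that links metabotropic glutamate receptors to calcium stores. Its short form, Homer1a, is the immediate early product and uncouples the scaffold, but the files do not say which form each probe set reads. The intensity of 104498_at was 487.5, 220.3 and −4.0 in treated ischemic pools, against 191.3, 16.8 and 239.1 in drug control pools. It was 589.6, 262.7 and 453.2 in ischemic pools, against 202.1, 139.0 and 291.8 in control pools. These values lie close to the floor of 109.5, treated ischemic pool 3 and drug control pool 2 were below it, and the groups overlapped. Over both arms 104498_at was 1.65-fold higher (log2 0.72 ± 0.39, SE, adjusted p = 1). The intensity of 104499_at was 779, 725 and 498 in treated ischemic pools, against 694, 1233 and 1200 in drug control pools. It was 972, 1054 and 835 in ischemic pools, against 892, 716 and 1228 in control pools. Its log2 difference over both arms was −0.29 (SE 0.21, adjusted p = 1), and the correlation of both Homer1 probe sets with each other over the 12 pools was 0.25. Of 6 measured partners of Homer1 at the synapse, 0 passed, with 0 at an unadjusted p under 0.05 and a median of −0.10.

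**Figure D2:**
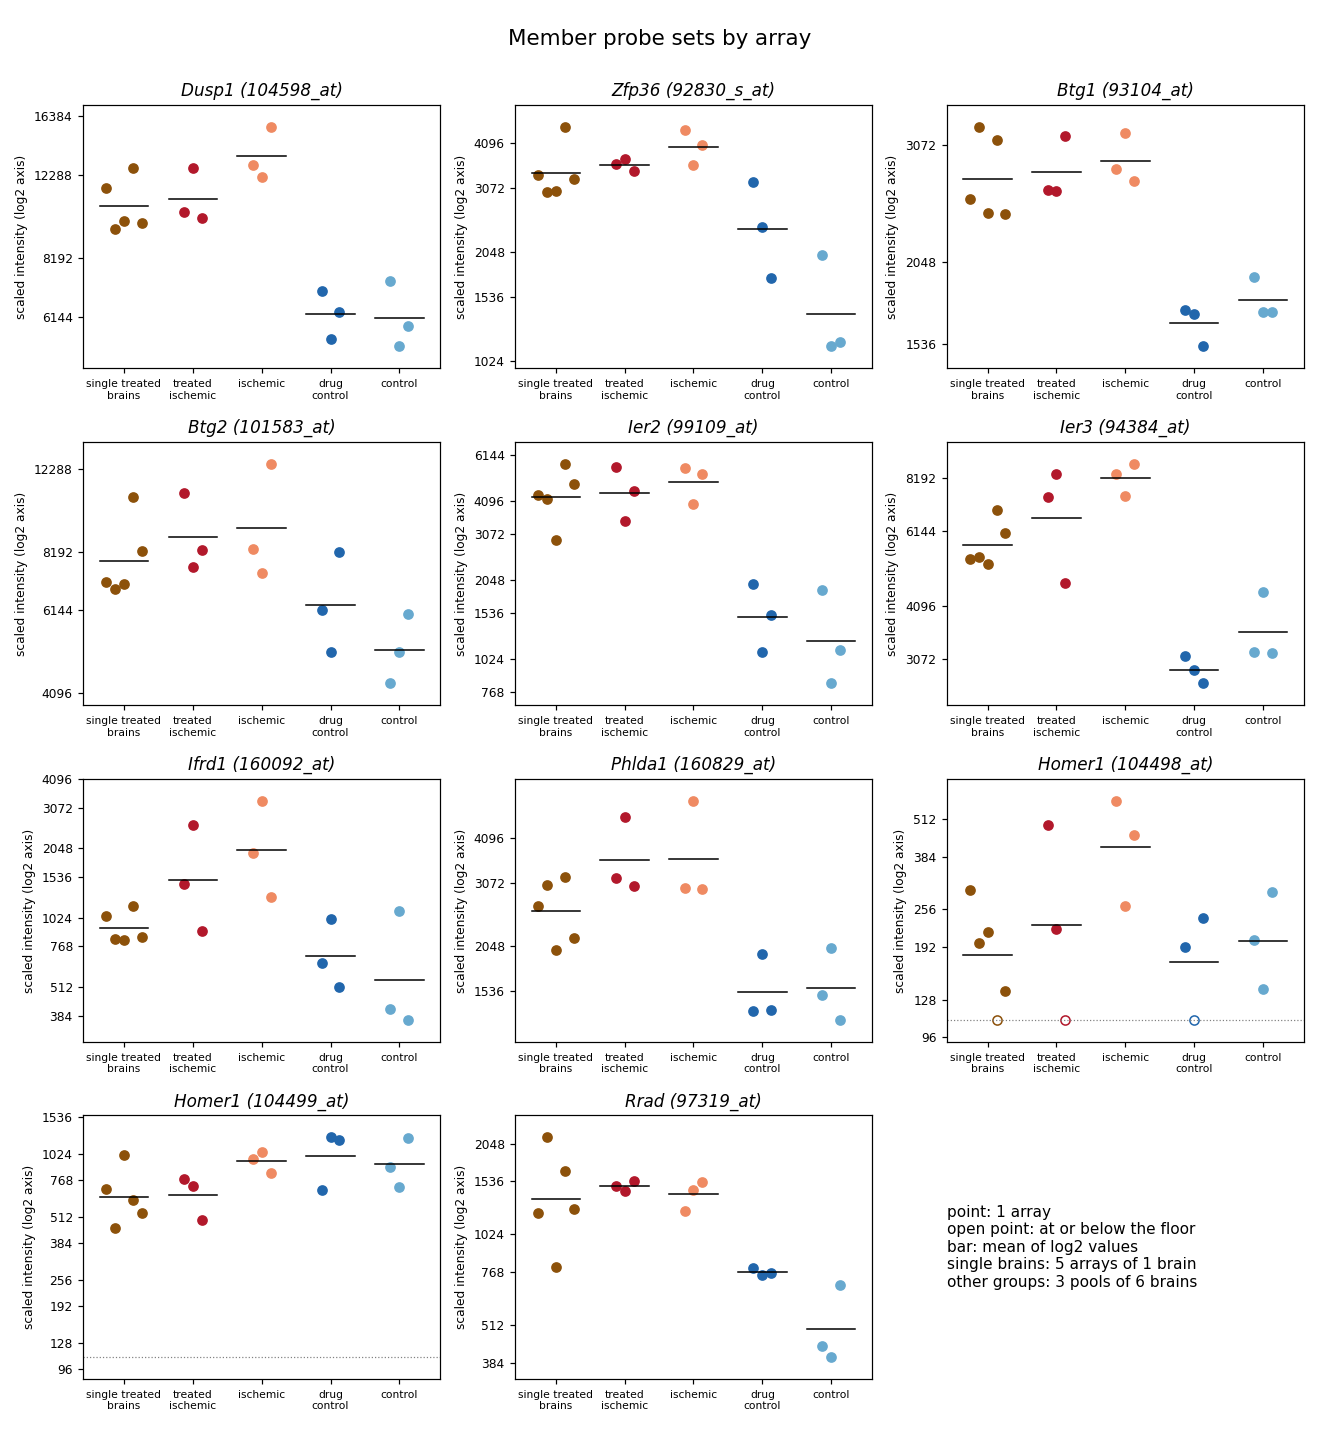
Scaled intensity (vertical, log2 axis) of the 11 member probe sets by group; each point is 1 array, open points lie at or below the floor of 109.5, and bars are means of log2 values. For 7 probe sets the treated ischemic and ischemic pools are all above the drug control and control pools; both Homer1 panels overlap.

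The transcription factors that share the early response gave the frame for these values. Of 21 measured factors, 8 rose over both arms and all 21 lay above 0, with a median log2 difference of 0.87. The highest were Fos (8.94-fold, adjusted p = 0.000694) and Atf3 (8.96-fold, adjusted p = 2.99e-05). Egr1 rose 3.69-fold, Fosb 3.67-fold, Nr4a1 3.61-fold, Junb 3.01-fold, and Jun and Klf4 2.40-fold each. Taken by arm, 4 of the 21 rose with the drug and 5 without it.

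The ischemia contrast without the drug asks what 1 h of ischemia and 6 h of reperfusion did in the absence of AEOL 10150. Rrad rose 2.80-fold (log2 1.49 ± 0.22, SE, adjusted p = 0.0226) and was the 1 member called, where 22 of 10259 probe sets passed, or 0.214%. All 11 members lay above 0, against 54.3% of all probe sets, with a median of 1.18 against 0.031. Of the members 9 had an unadjusted p under 0.05, as had 4.12% of all. For those 9, all but the Homer1 probe sets, every ischemic pool was above every control pool, which 4.07% of all probe sets showed. Ier2 (4.05-fold, adjusted p = 0.055), Dusp1 (2.21-fold, adjusted p = 0.0608) and Zfp36 (2.90-fold, adjusted p = 0.0725) lay just outside the threshold. Ifrd1 was 3.68-fold, Ier3 2.31-fold, Phlda1 2.27-fold, Btg2 1.81-fold and Btg1 1.62-fold higher, with adjusted p from 0.145 to 0.813.

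Control and ischemic pools with the same replicate number deviated together, so a fit with the number as a block was also run. That fit held all 12 pools, treated ischemic ones included, although their numbers were not taken to pair. Its standard errors rest on all 12 pools. With this replicate block 5 members were called, where 35 of 10259 probe sets passed, against 22 without the block. They were Rrad, Ier2 (limma adjusted p = 0.00403), Ifrd1 (adjusted p = 0.00943), Phlda1 (adjusted p = 0.0137) and Zfp36 (adjusted p = 0.0347). Within the pairs Ifrd1 differed by 2.26, 1.60 and 1.78 log2 units in pools 1 to 3, and Phlda1 by 0.99, 1.36 and 1.21. Ier2 differed by 1.55, 2.27 and 2.24. The call of Rrad without the block was lost when control pool 1 or 2 or any 1 ischemic pool was left out (adjusted p 0.0986 to 0.127), and Ier2 was called without control pool 1 (adjusted p = 0.0427).

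Markers of blood cells moved with the same contrast. The summed intensity of 7 neutrophil markers was 9019 to 11545 in ischemic pools, against 7171 to 8654 in control pools, and S100a8 rose 4.45-fold (adjusted p = 0.0255). That of the 2 red blood cell markers found was 7962 to 10981 in ischemic pools, against 2689 to 4317 in control pools, with Hba-a1 2.70-fold higher (adjusted p = 0.65). In each pooled group 1 neutrophil marker was at the floor on every array. In the drug arm the neutrophil sums overlapped, at 7515 to 12216 in treated ischemic pools against 6658 to 9356 in drug control pools. The red blood cell sums there were 3330 to 9402 in treated ischemic pools, against 2537 to 5003 in drug control pools. S100a8 was the 1 marker called over both arms in any of the cell type lists. The part of these cells in the members' values was not tested.

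The same contrast within the drug-treated mice sets treated ischemic against drug control pools. Treated ischemic pools 2 and 3 also differ from the drug control pools in deposited scale. For those pools ischemia and deposited scale cannot be told apart. No member was called by limma, where 9 of 10259 probe sets passed, or 0.0877%; 6 members had an unadjusted p under 0.05, as had 3.44% of all. The median of the members was 0.81, against −0.023 for all probe sets, and 10 of 11 lay above 0, against 46.4% of all. For 7 members every treated ischemic pool was above every drug control pool, which 3.75% of all probe sets showed. The folds were 2.97 for Ier2, 2.32 for Phlda1, 2.28 for Ier3, 1.93 for Rrad, 1.75 for Dusp1 and 1.69 for Btg1, with adjusted p from 0.224 to 0.488. Those for Ifrd1 (2.14), Zfp36 (1.5) and Btg2 (1.40) had an adjusted p of 1. The 3'/5' ratio of the actin control, a sign of RNA integrity, was 1.68, 1.29 and 1.34 in treated ischemic pools, against 1.97, 2.14 and 1.15 in drug control pools. Its part in these differences was not tested.

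**Figure D3:**
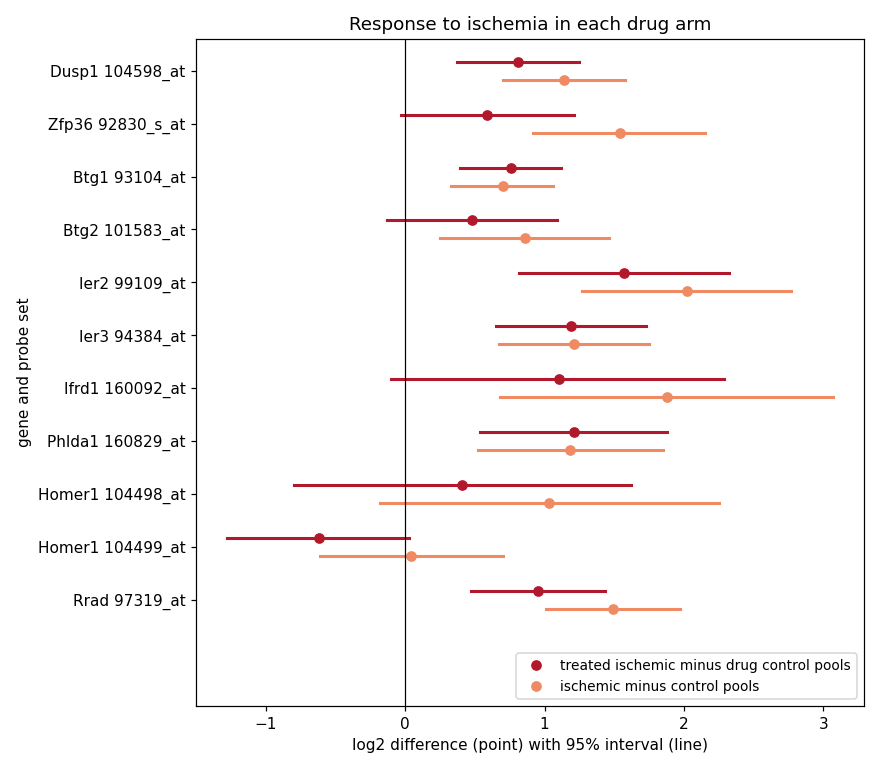
Log2 difference (horizontal, point) with its 95% interval (line) for each member probe set, treated ischemic minus drug control pools above and ischemic minus control pools below. For Ier3, Phlda1 and Btg1 the points nearly coincide, and for Zfp36 they lie at 0.59 with the drug and 1.54 without it.

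Whether the response to ischemia differed between the arms was tested directly. The deposited scale of treated ischemic pools 2 and 3 limits that test in the same way. No probe set of 10259 passed in that interaction, or 0%, while 213 had an unadjusted p under 0.05. Zfp36 was the 1 member among them, at −0.95 on the log2 scale (SE 0.39) with a limma adjusted p of 1. With groups taken from the descriptions it was −0.39 (SE 0.54). The median of the members was −0.45, against −0.043 for all probe sets, and 2 of 11 lay above 0, against 45.4% of all. The 95% interval for Ier3 was −0.78 to 0.74 and that for Phlda1 −0.92 to 0.97. With 3 pools a group, changes of the response within those unadjusted bounds are compatible with the data.

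Treated ischemic against ischemic pools compares AEOL 10150 with no drug named, both after ischemia. Treated ischemic pools 2 and 3 also differ from the ischemic pools in deposited scale, and the description of pool 1 names no drug. Drug and deposited scale therefore cannot be told apart here. No member was called, where 1 of 10259 probe sets passed, or 0.00975%, and 0 members had an unadjusted p under 0.05, against 1.47% of all. The median of the members was −0.16, against −0.015 for all probe sets, and 1 of 11, Rrad at 0.09, lay above 0, against 47% of all. The members were read on the same arrays, so their signs are not separate observations. The larger differences were −0.86 for Homer1 104498_at, −0.54 for Homer1 104499_at, −0.44 for Ifrd1, −0.31 for Ier3 and −0.30 for Dusp1. The value of Homer1 104498_at turned on single arrays: it was −0.33 without treated ischemic pool 3, which lay below the floor, and −1.41 without treated ischemic pool 1. With the deposited scale as a block, which leaves treated ischemic pool 1 to stand for the drug, it was 0.24, and Ier2 and Btg2 then stood at 0.19 and 0.25. Homer1 104499_at was the 1 member for which every treated ischemic pool lay below every ischemic pool, which 2.11% of all probe sets showed. Its fold was 0.690, with a 95% interval of −1.19 to 0.12 on the log2 scale. For Ier2 that interval was −0.89 to 0.61, and for Dusp1 −0.74 to 0.14. Treated ischemic pool 1, whose description names no drug, was above every drug control pool in 10 of 11 members and below the mean of the ischemic pools in 7 of 11.

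Drug control against control pools gives the effect of the drug without ischemia. No member was called, where 1 of 10259 probe sets passed, or 0.00975%; 2 members had an unadjusted p under 0.05, as had 2.57% of all. These were Zfp36, 1.72-fold higher (log2 0.78 ± 0.28, SE, adjusted p = 1), and Rrad, 1.55-fold higher (log2 0.63 ± 0.22, SE, adjusted p = 1). With groups from the descriptions, where drug control pool 1 counts as saline, Zfp36 differed by 0.27 (SE 0.38) and Rrad by 0.44 (SE 0.28). For Rrad every drug control pool was above every control pool, which 2.73% of all probe sets showed. For Ier3, at −0.29, every drug control pool was below every control pool, which 1.92% showed. The drug control pools also enter the contrast of ischemia with the drug and the interaction, so the values of Zfp36 there rest on the same arrays.

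The members were then compared over the single brains, each 1 animal given AEOL 10150 after ischemia. Against drug control pools 4 members rose: Ier2 (2.89-fold, adjusted p = 0.0193), Ier3 (1.98-fold, adjusted p = 0.0109), Dusp1 (1.70-fold, adjusted p = 0.0297) and Btg1 (1.65-fold, adjusted p = 0.0346). In this contrast 645 of 9907 probe sets passed, or 6.51%, in both directions. The single brains differ from these pools in ischemia, in pooling and in the scale of their deposited values, and these cannot be told apart. The summed astrocyte markers were 89628 to 110055 in the single brains, against 78355 to 82586 in drug control pools, and the oligodendrocyte markers 114303 to 160188, against 90945 to 114375. Their part in the members' values was not tested. For 6 members, the 4 and Phlda1 and Rrad, every single brain was above every drug control pool, which 8.9% of all probe sets showed. Ier2 ranged from 2909 through a median of 4312 to 5691 in the single brains, against 1086 to 1970 in drug control pools. Ier3 ranged from 5141 to 6908, against 2684 to 3120 in drug control pools. The calls of Dusp1 and Btg1 were lost without any 1 of the single brains (limma adjusted p 0.0528 to 0.0758). Without drug control pool 3 the count was 1, Ier3, where 234 of 9738 probe sets passed.

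Against ischemic pools none of the members was called in the single brains, where 182 of 9889 probe sets passed, or 1.84%. An unadjusted p under 0.05 was found for 3 members and for 23.2% of all probe sets, so that share of the members is near the background. All 11 lay below 0, with a median of −0.35 against −0.048 for all probe sets, of which 45.5% lay above 0. Neutrophil markers were lower too: of 6 tested 0 lay above 0, with Ltf at −1.10 (limma adjusted p = 0.0218). Of 2 red blood cell markers tested 1 lay above 0, and Hba-a1 stood at −1.80 (adjusted p = 0.04). Their part was not tested, and drug, pooling and deposited scale, which all differ here, cannot be told apart. Ifrd1 was 816, 826, 845, 1041 and 1149 in the single brains, against 1261, 1960 and 3307 in ischemic pools. Its log2 difference was −1.12 (SE 0.30, adjusted p = 0.091), and it was called without ischemic pool 3 (−1.46, adjusted p = 0.033). Ier3 differed by −0.52 (SE 0.15, adjusted p = 0.105) and Homer1 104498_at by −1.20 (SE 0.38, adjusted p = 0.122). For Ifrd1 and Ier3 every single brain was below every ischemic pool, which 9.8% of all probe sets showed.

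The single brains varied among themselves. Brain 14 was the highest in 7 of 11 members, where it was the highest in 17.3% of 8873 probe sets. For Zfp36 it stood at 4525, against 2990 to 3324 in the other single brains, and for Btg2 at 10687, against 6829 to 8211. Brain 13 was the lowest in 5 members, among them Ier2 at 2909, Phlda1 at 2002 and Rrad at 799, where it was the lowest in 23.5% of all. Brain 12 had the highest Rrad, 2146. The median SD of log2 values was 0.27 over the members and 0.23 over all probe sets in the single brains. Actin 3'/5' ratios of the single brains lay between 1.38 and 1.60, with 1.38 for brain 14, and its part in these ranks was not tested.

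**Figure D4:**
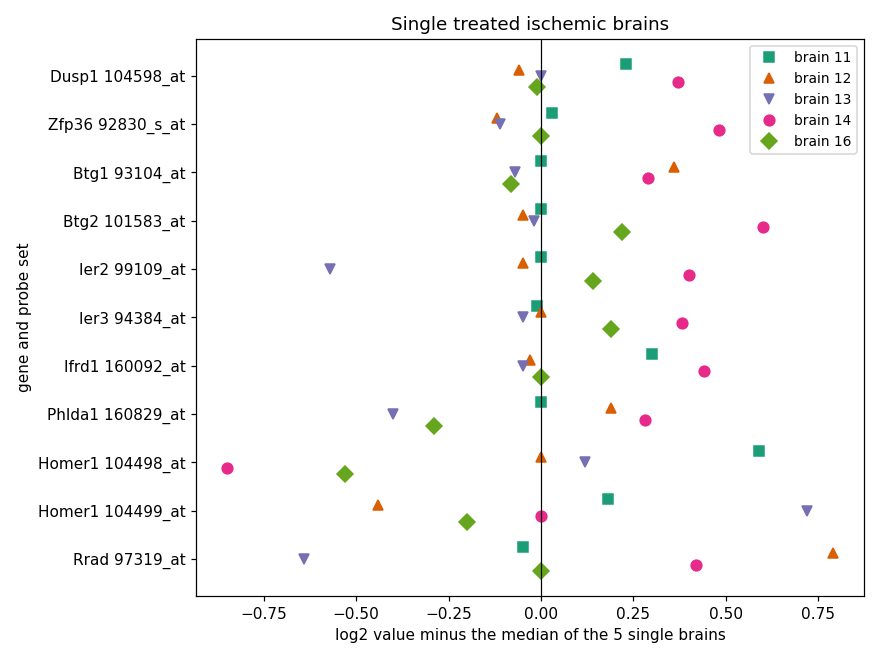
Log2 value minus the median of the 5 single brains (horizontal) for each member probe set, 1 marker per brain. Brain 14 is farthest right in 7 of 11 rows, and brain 13 is farthest left in 5.

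Over the 12 pools, the 9 genes other than Homer1 correlated with each other at 0.42 to 0.93 (Pearson's r of log2 values, median 0.79 over 36 pairs), as a description of pools that share groups and replicate numbers. Of 6683 other probe sets above the floor on all 12 pools, those most like Dusp1 were Fos (r = 0.96), Hspa1b (0.96) and Atf3 (0.95). Ier2 was most like the heat shock genes Dnajb1 (0.98), Hspa1b (0.97) and Hspa1a (0.95), and Btg1 like Hsph1 (0.98). Rrad was most like Ccl3 (0.97), Zfp36 like Birc3 (0.97), and Ier3 like Gadd45g and Jun (0.95 each). Phlda1 and Ifrd1 shared their nearest neighbours, Klf4 (0.96 and 0.93) and Bdnf (0.95 and 0.92). Btg2 was most like Sox4 (0.93). These r values describe likeness over 12 arrays and carry no test.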

How the data were processed

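RNA of 17 arrays was analysed. The deposited values are intensities on a linear scale, 1 per probe set; 15.2% to 19.3% of an array's values were below 0. Which software and scaling the authors used was not given in the sources used here. Arrays carry no read depth, and their number limits the precision.

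Groups came from the sample titles, and the single brains from their descriptions, 1 of which gives a brain number other than its title. Each array was scaled to a mean of 2500 between the 2nd and 98th percentiles. A floor of 109.5, the 25th percentile over all scaled pools, replaced lower values, and log2 was taken (floor 6.77). Array control probe sets (66) were left out, and a probe set was tested where 3 or more arrays of the fit exceeded the floor. Symbols came from the platform annotation, 10855 probe sets with 1 symbol, 396 with several and 1237 with none. An _s_at probe set, as for Zfp36, may read more than 1 transcript. Gene lists used the brightest probe set per gene.

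limma 3.58.1 in R 4.3.3 fitted the 12 pools together (8 residual and 2.23 prior degrees of freedom), and single brains with 3 pools at a time (6 residual). Benjamini-Hochberg adjustment ran over all probe sets of a comparison, with a threshold of 0.05, two-sided. The fit was tested on simulated data. With 3 arrays against 3 an exact permutation test was not used per gene.

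Replicate numbers 1 to 3 recur in each pooled group, and the labels do not say what they mark. Same-numbered control and ischemic pools correlated at 0.45 to 0.57 in their deviations from the group means, every pair above 0.1, so the number was taken to pair them. Drug control pools correlated at 0.43 to 0.50 with same-numbered control pools and at 0.33 to 0.48 with ischemic pools. With treated ischemic pools the range was −0.34 to 0.40, so the number was not taken to pair them. The values below 0 were all of treated ischemic pool 3. The block fit nevertheless held all 12 pools together, treated ischemic pools included, under the same numbers.

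The members, lists and tests were chosen with earlier results of these data known. All members are named; from each list up to 4 genes with the smallest p over both arms and any past the threshold; and the 3 probe sets most correlated with a member, of which the leading ones are given. Alternatives were another normalization, the values as deposited, another floor, no filter, a generalised log, the replicate block, groups from the descriptions, leaving out the 2 arrays whose treatment labels disagree or each array in turn, the scale set as a block, and all 17 arrays in 1 fit.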

Additional observations from a re-analysis of the deposited data

Results flagged for a closer look

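Zfp36 in single treated brain 14 stood apart from the other 4 single brains. On the log2 scale its gap to the nearest of them was 0.745 of the whole range, above the critical value of Dixon's test for 5 samples. Such a gap arises by chance in about 1 in 20 groups, and the 11 member probe sets were each looked at over these 5 brains. The scaled intensity, before log2, was 4525 in brain 14, against 2990 to 3324 in the others.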

How the results depend on the processing

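Without the drug the count of members called, 1, became 0 on values as deposited, without the 2 arrays whose treatment labels disagree and with the deposited scale as a block. It became 2 with groups from the descriptions, 3 with no filter and 4 with a floor at the 40th percentile. It became 5 with the replicate block and 5 with all 17 arrays in 1 fit. Among all probe sets 22 of 10259 passed in the main fit. Where the count became 2 to 5, in the same order, 28 of 10259, 28 of 12422, 33 of 8295, 35 of 10259 and 40 of 10541 passed. Where it became 0, in the same order, 0 of 10701, 11 of 10119 and 20 of 10259 passed. With the drug the count of 0 became 1 with no filter (Btg1 at 0.76) and 1 with all 17 arrays (Ier3 at 1.19). It became 2 with the replicate block, which held the treated pools although their numbers were not taken to pair. Among all probe sets 10 of 12422, 21 of 10541 and 12 of 10259 passed in these 3 settings. On values as deposited the count became 1, Homer1 104499_at at −3.12, where 6935 of 10701 probe sets passed. Over both arms the count of 6 became 1, Ier2, without the 2 arrays and with the scale block. It became 0 on values as deposited, 4 with quantile normalization, 7 with the higher floor or all 17 arrays, and 8 with the replicate block. The block added Zfp36 (limma adjusted p = 0.024) and Ifrd1 (adjusted p = 0.00243). In the main fit 46 of 10259 probe sets passed. With the higher floor 55 of 8295 passed, with all 17 arrays 68 of 10541, and with the replicate block 65 of 10259. Without the 2 arrays 22 of 10119 passed, with the scale block 19 of 10259, and with quantile normalization 38 of 10257. On values as deposited 0 of 10701 passed. Leaving out each array gave 0 to 1 without the drug, 4 to 5 over both arms, 1 to 5 for single brains against drug control pools, 0 to 1 against ischemic pools, and 0 in the other comparisons. The deposited values, unscaled, shifted the median of all probe sets by −2.48 with the drug, −1.20 over both arms, −2.51 for the drug after ischemia, and −3.76 and −3.77 for the single brains, by their construction. On them 10 members were called for the drug after ischemia, and 10 and 11 in the single brains against drug control and ischemic pools, all below 0. Among all probe sets 7132 of 10701, 8966 of 9110 and 8966 of 9097 passed in these comparisons, in the same order. Over both arms Dusp1 then stood at −0.34, Btg1 at −0.59, Ier3 at −0.11, Phlda1 at −0.12 and Rrad at −0.10, and Rrad at −2.54 for the drug after ischemia. Against drug control pools the single brains stood at −3.12 for Dusp1, −3.37 for Zfp36, −3.16 for Btg1, −3.57 for Btg2, −2.35 for Ier2, −2.90 for Ier3, −3.45 for Ifrd1, −3.14 for Phlda1 and −3.06 for Rrad. Apart from the values as deposited, no called difference changed direction. The 3 arrays a group, and the dim Homer1 104498_at near the floor, limit what could be seen.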
